A study of Arabidopsis thaliana with 12 samples.

Results

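Transcripts of 4 nuclear genes whose products build or feed the photosynthetic membranes were compared between Arabidopsis thaliana prors2 and wild-type (WT) samples. The genes are PSB27 (AT1G03600), LPA19 (AT1G05385), ATAB2 (AT3G08010) and SECE1 (AT4G14870). The set was fixed by locus with earlier results of these data known, so the p-values below are not those of an independent choice of genes. A feature was taken as a member where the platform's gene table ties it to exactly 1 of these genes. Each gene had 1 such probe among the 3439 features of the array, and 0 probes shared with other genes. All 4 were above 0 in all 12 samples, so all 4 passed the minimum of 4 values above 0 per group. There were 6 samples of prors2, by the labels a mutant line for prolyl-tRNA synthetase, an enzyme that charges tRNA with proline. They were set against 6 WT samples, and both groups are in the Columbia 0 ecotype. The sources used here give no tissue, age, growth conditions, kind of allele or number of plants per sample. Since nothing states that each sample came from its own plants, the p-values cover the spread among these 12 samples, and that spread may be technical.

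The photosystems are pigment and protein complexes of the thylakoid, the inner membrane of the chloroplast. Their core subunits are encoded in the plastid genome and made on plastid ribosomes, while most of the factors that make, insert and assemble them are encoded in the nucleus and imported. PSB27 is a lumen protein that binds photosystem II during assembly and is needed for its repair after light damage. LPA19 is a relative of PSB27 that takes part in maturing the D1 reaction-centre protein. ATAB2 binds RNA and promotes translation of plastid messages for subunits of both photosystems. SECE1 is a small subunit of the thylakoid Sec translocase, the channel through which unfolded proteins cross or enter the membrane.

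The arrays of the 2 groups differed as a whole, and that bears on every value below. The median feature of an array stood at a relative intensity between 0.279 and 0.305 in prors2 and between 0.135 and 0.169 in WT. An array had 262 to 316 features at 0 in prors2 and 368 to 396 in WT. The summed intensity per array ran from 3107 to 3278 in prors2 and from 2942 to 3167 in WT. Precision is limited by the number of arrays. Over the 3024 tested features the median log2 difference (prors2 minus WT) came to 0.76 for deposited values, 0.69 with arrays set to equal sums, 0.07 with quantile normalization and -0.06 with median centring. Each member is therefore given on the deposited scale first, then after quantile normalization, which forces all arrays to one distribution, and then with equal sums and with median centring. Markers of green leaf, root, seed and flower were looked up to check the tissue, but 0 of the 20 had a probe that the platform table ties to them, so tissue identity is not analysed here. In whole-tissue RNA, fewer cells of a type and less RNA per cell cannot be told apart.

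PSB27 was higher in prors2 on the deposited scale and after quantile normalization, but not after median centring. Its deposited relative intensities were 3.56, 3.37, 2.44, 2.25, 2.60 and 2.44 in prors2 replicates 1 to 6, against 1.63, 1.67, 1.56, 1.69, 2.005 and 2.02 in WT replicates 1 to 6. The lowest prors2 sample lay above the highest WT sample, and prors2 replicates 1 and 2 were higher than the other 4. Such a gap, with prors2 higher, was seen in 38.2% of the tested features on the deposited values. The means were 2.78 ± 0.55 in prors2 and 1.76 ± 0.20 in WT (SD, n = 6 each). After quantile normalization PSB27 rose by 0.62 on the log2 scale (SE 0.15, 95% interval 0.29 to 0.95, limma adjusted p = 0.00483), and the groups did not overlap. Of all tested features, 24.8% were called higher and 22.4% lower by the same rule, and 16.3% were higher in prors2 with no overlap. PSB27 was also called higher on the deposited values (0.64, SE 0.14, limma adjusted p = 0.0014) and at equal sums (0.57, SE 0.15, limma adjusted p = 0.00486), where 57.8% and 55% of features were called higher. In both cases the median feature had a larger log2 difference than PSB27. After median centring the direction turned, with a log2 difference of -0.19 (SE 0.17) that was not called (limma adjusted p = 0.385).

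LPA19, the relative of PSB27, had nearly the same deposited level in both genotypes. Its deposited relative intensities were 0.134, 0.229, 0.176, 0.199, 0.222 and 0.211 in prors2 replicates 1 to 6, against 0.116, 0.149, 0.206, 0.197, 0.238 and 0.218 in WT replicates 1 to 6. The groups overlapped over most of their range, and the lowest sample of each genotype was its replicate 1. The means were 0.195 ± 0.035 in prors2 and 0.187 ± 0.046 in WT (SD, n = 6 each), a log2 difference of 0.08 with a 95% interval from -0.35 to 0.50 (limma adjusted p = 0.737). Against the upward shift of the median feature, LPA19 fell by 0.78 after quantile normalization (SE 0.20, limma adjusted p = 0.00656). The normalized log2 values ran from -3.35 to -2.58 in prors2 and from -2.67 to -1.58 in WT, which still overlap. Median centring also gave a lower call (-0.75, SE 0.21, limma adjusted p = 0.0105), where 29.1% of features were called lower. At equal sums LPA19 differed by 0.0041 (limma adjusted p = 0.985).

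SECE1 showed the same arrangement with less scatter. Its deposited relative intensities were 0.557, 0.553, 0.579, 0.591, 0.497 and 0.486 in prors2 replicates 1 to 6, against 0.430, 0.513, 0.521, 0.504, 0.543 and 0.553 in WT replicates 1 to 6. The groups overlapped: prors2 was the higher of the same-numbered samples in replicates 1 to 4 and the lower in replicates 5 and 6. The means were 0.544 ± 0.043 in prors2 and 0.511 ± 0.043 in WT (SD, n = 6 each), a log2 difference of 0.09 with a 95% interval from -0.12 to 0.30 (limma adjusted p = 0.409). After quantile normalization SECE1 fell by 0.44 (SE 0.10, limma adjusted p = 0.00386), and the groups no longer overlapped, at -1.36 to -1.06 in prors2 and -0.92 to -0.54 in WT. A gap in this direction was seen in 14.8% of the tested features. After median centring it fell by 0.73 (SE 0.11, limma adjusted p = 1.63e-04), again with no overlap between the groups, a gap seen in 21.1% of features under that scaling. At equal sums the difference was 0.02 (SE 0.092, limma adjusted p = 0.875).

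ATAB2 stood lower in prors2 under all 4 scalings, though it was called under 2 of them. Its deposited relative intensities were 0.161, 0.0622, 0.0355, 0.0391, 0.126 and 0.0875 in prors2 replicates 1 to 6, against 0.114, 0.125, 0.0896, 0.0736, 0.133 and 0.142 in WT replicates 1 to 6. The groups overlapped, since prors2 replicate 1 was the highest of the 12 samples, while prors2 replicates 2, 3 and 4 were below all WT samples. The means were 0.0852 ± 0.050 in prors2 and 0.113 ± 0.026 in WT (SD, n = 6 each). The SD was 58.7% of the mean in prors2 and 23.3% of the mean in WT. After quantile normalization ATAB2 fell by 1.59 (SE 0.40, 95% interval -2.46 to -0.73, limma adjusted p = 0.00576), and 3.77% of the tested features had a lower difference. The fall after median centring was 1.41 (SE 0.39, limma adjusted p = 0.00989). On the deposited values the difference was -0.59 (SE 0.37, limma adjusted p = 0.173) and at equal sums -0.66 (SE 0.38, limma adjusted p = 0.145), neither past the threshold. The probe was dim in prors2, where between 11.5% and 31.5% of the features of the array were dimmer, and it is left out when the dimmest 25% of features are removed before the test.

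**Figure D1:**
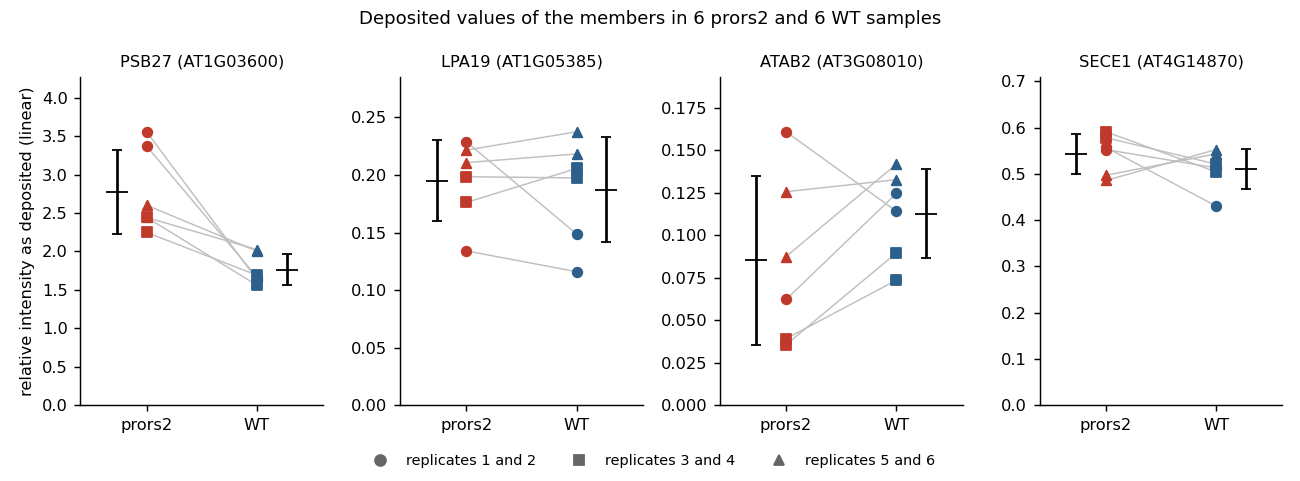
Relative intensity as deposited (linear axis from 0, one axis per gene) of the 4 genes in 6 prors2 and 6 WT samples; grey lines join samples of the same replicate number, marker shapes show the sets of neighbouring numbers, and black bars give the mean and SD. The 6 PSB27 values of prors2 (2.25 to 3.56) lie above the 6 of WT (1.56 to 2.02), while the groups overlap for LPA19, ATAB2 and SECE1.

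The median difference of the tested features moved by 0.83 on the log2 scale between the deposited values and median centring, and the 4 genes moved with it. On the deposited values their log2 differences minus that median were -0.12 for PSB27, -0.67 for SECE1, -0.69 for LPA19 and -1.35 for ATAB2. Equal sums and median centring shift each array by 1 constant on the log2 scale. These values were therefore bound to stay nearly the same under them, and they were equal to 2 decimals. After quantile normalization the differences minus the median were 0.55 for PSB27, -0.51 for SECE1, -0.85 for LPA19 and -1.67 for ATAB2. Of the tested features, 44.1% had a lower difference than PSB27 on the deposited values and 75.5% after quantile normalization. For LPA19 these shares were 22.0% and 15.6%, for SECE1 22.4% and 27.5%, and for ATAB2 7.67% and 3.77%.

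**Figure D2:**
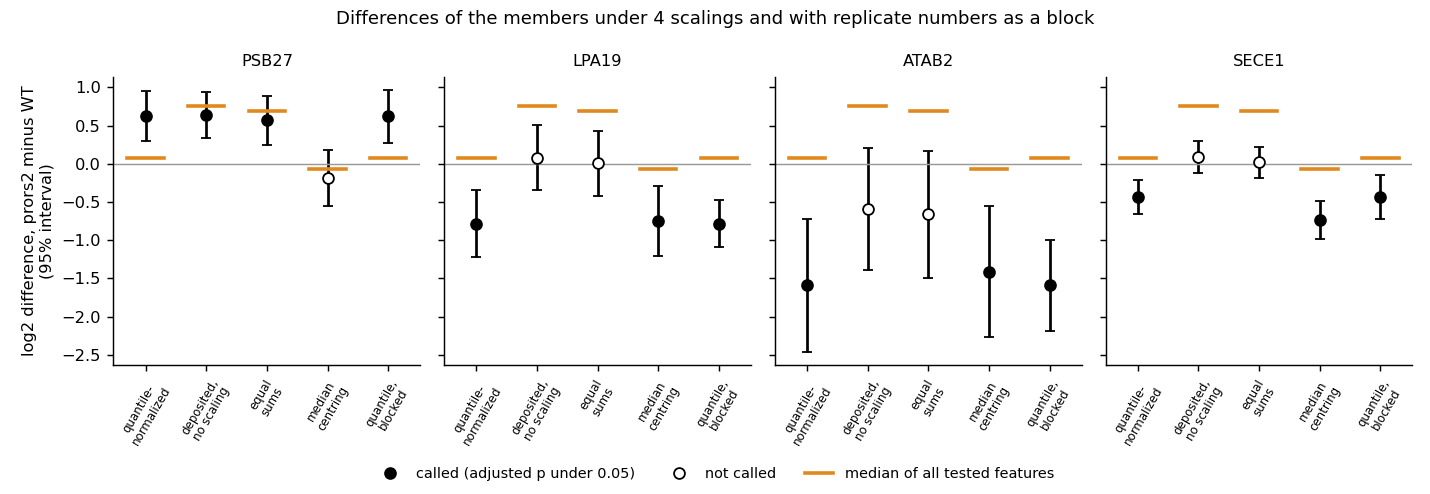
Log2 difference, prors2 minus WT, with its 95% interval for each gene under 4 scalings and with replicate numbers as a block; filled points passed an adjusted p of 0.05 and orange bars mark the median of all tested features. PSB27 runs from 0.64 on the deposited values to -0.19 after median centring, and LPA19, ATAB2 and SECE1 are called lower only where the median feature lies near 0.

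The position of a probe among all features of its own array needs no scaling between arrays. A probe's brightness also depends on its sequence, so positions are compared between samples and not between genes. PSB27 was brighter than 94.3% to 96.8% of features in prors2 and 92.0% to 94.4% in WT. SECE1 was brighter than 68.2% to 74.3% of features in prors2 and 77.3% to 82.6% in WT, with no overlap between the groups. Of the tested features, 16.2% had positions lower in prors2 with no overlap. LPA19 had a median position of 37.1% in prors2 and 55.5% in WT. Its groups overlapped, at 26.9% to 41.7% in prors2 and 41.3% to 65.2% in WT. ATAB2 had a median position of 16.4% in prors2 and 41.8% in WT. The ATAB2 groups overlapped too, at 11.5% to 31.5% in prors2 and 27.6% to 50.7% in WT. These positions are given as a description, with no test.

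**Figure D3:**
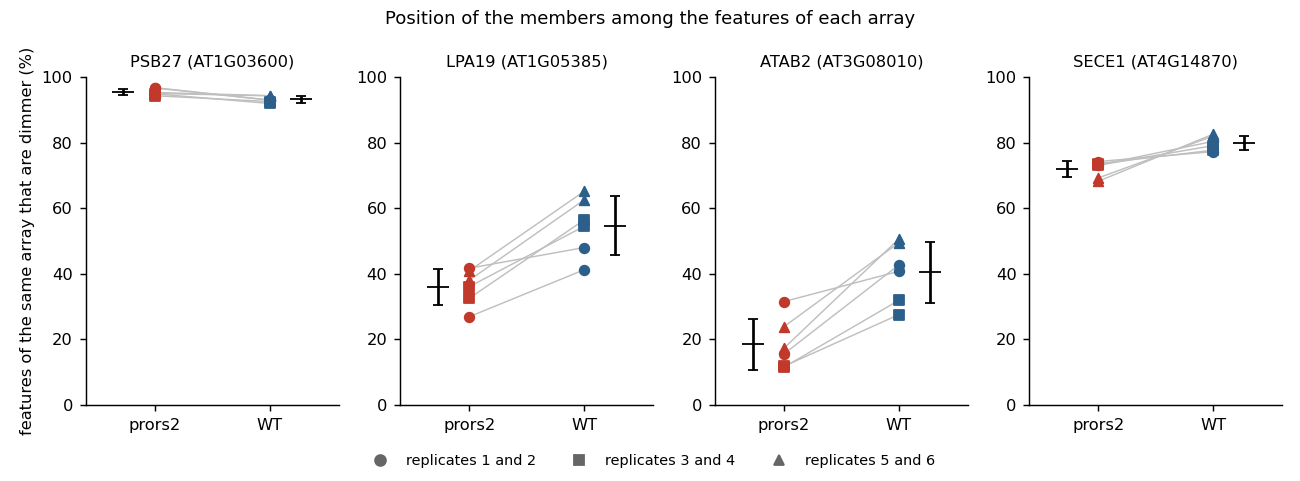
Share of the features of the same array that are dimmer than each gene's probe, in percent, for 6 prors2 and 6 WT samples; lines join same-numbered samples and black bars give the mean and SD. LPA19, ATAB2 and SECE1 stand lower on the axis in each prors2 sample than in the WT sample of the same number, and PSB27 stands higher.

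Compared by replicate number, the direction of each gene was uniform after quantile normalization. On the deposited values it was uniform for PSB27 and mixed for the other 3 genes. On the deposited values PSB27 was higher in prors2 in 6 of 6 same-numbered comparisons, SECE1 in 4, LPA19 in 3 and ATAB2 in 1. After quantile normalization PSB27 was higher in 6 of 6, and each of the other 3 genes was lower in 6 of 6. How many of all tested features had 6 of 6 in one direction was not counted. With no overlap between the groups, 16.3% were higher and 14.8% lower in prors2. After median centring PSB27 was higher in 2 and lower in 4. The 4 genes kept their calls with the replicate number as a block, at limma adjusted p of 0.0101 for PSB27, 0.00227 for LPA19, 0.00186 for ATAB2 and 0.0195 for SECE1. In that fit 28% of all tested features were called higher and 25.1% lower.

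The differences are also given within sets of neighbouring replicate numbers. Over 2654 features, deviations from the group means were correlated between prors2 and WT samples of different numbers. The average was 0.117 within one set and -0.104 between different sets. Deviations cancel out within each group, so a positive average within sets brings a negative one between sets. For PSB27 the normalized log2 difference averaged 1.05 in replicates 1 and 2, 0.53 in replicates 3 and 4, and 0.27 in replicates 5 and 6. The deposited PSB27 means behind these were 3.465 in prors2 and 1.651 in WT, then 2.35 in prors2 and 1.63 in WT, and then 2.52 in prors2 and 2.01 in WT. For LPA19 the normalized differences were -0.45, -0.89 and -1.005 in the same 3 sets. On the deposited scale LPA19 lay at 0.42 in replicates 1 and 2, where both WT samples were low, and at -0.11 and -0.08 in the other sets. For SECE1 the normalized differences were -0.28, -0.26 and -0.77, and the deposited ones 0.24, 0.19 and -0.16. For ATAB2 the normalized differences were -1.17, -2.07 and -1.53, and the deposited ones -0.25, -1.12 and -0.39. Whether the sets differ from each other was not tested.

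**Figure D4:**
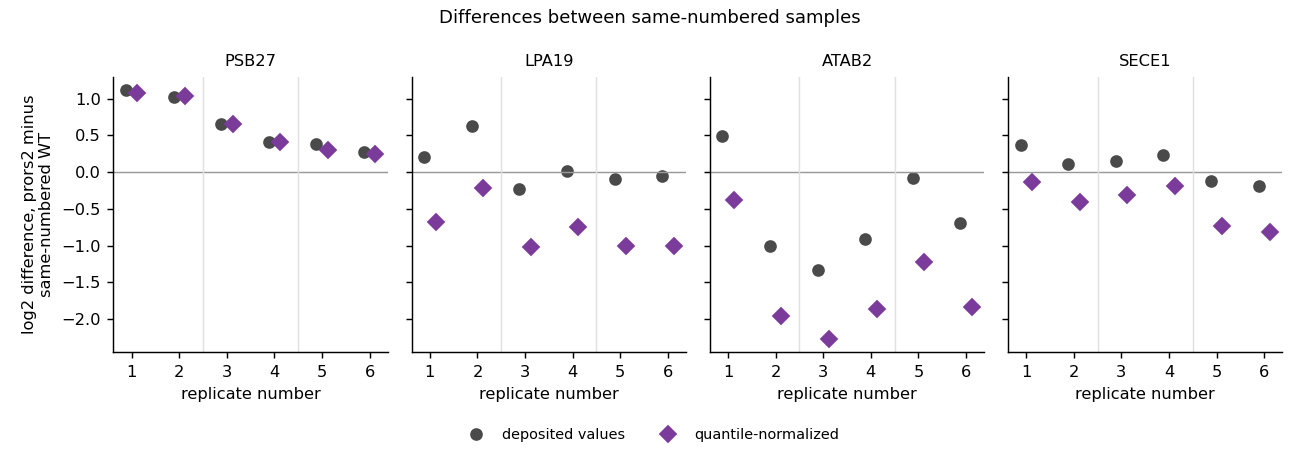
Log2 difference between each prors2 sample and the WT sample of the same replicate number, from deposited values (circles) and after quantile normalization (diamonds); vertical lines part the sets 1 and 2, 3 and 4, and 5 and 6. All 6 PSB27 differences are above 0 on both scales, and the other 3 genes lie below 0 in all 6 comparisons after normalization.

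A ratio of 2 genes within an array removes a factor that multiplies all values of that array alike. It does not remove a difference between arrays that depends on brightness, and PSB27 had the highest values of the 4 genes. A changed ratio shows that the values changed unequally, though not which gene changed. Whether brightness has a part in it was not tested. All 6 pairs of the 4 genes were compared on the deposited values, with p-values adjusted over the 6. Ratios of other features were not computed, so how common such changes are over the array is not known. The log2 ratio of PSB27 to SECE1 was 2.33 ± 0.29 in prors2 and 1.78 ± 0.13 in WT (SD, n = 6 each), a difference of 0.55 (SE 0.13). The groups did not overlap, though the lowest prors2 value of 1.927 was close to the highest WT value of 1.925. A two-sided exact permutation test gave the lowest p possible with 6 samples in each group, p = 0.00216 (adjusted p = 0.013). The log2 ratio of PSB27 to ATAB2 was 5.23 ± 0.77 in prors2 and 3.996 ± 0.29 in WT, a difference of 1.23 (SE 0.33, exact permutation p = 0.00649, adjusted p = 0.0195). For PSB27 and its relative LPA19 the log2 ratio was 3.83 ± 0.47 in prors2 and 3.27 ± 0.33 in WT, a difference of 0.56 (SE 0.23, exact permutation p = 0.0195, adjusted p = 0.039). These 3 ratios were higher in prors2 in 6 of 6 same-numbered comparisons. An exact sign-flip test that keeps the pairing by number gave p = 0.0312 for each, the smallest that 6 pairs allow, and an adjusted p of 0.0625, which does not pass. Leaving out 1 sample ended the call for PSB27 over LPA19 in 7 of 12 runs, namely without prors2 replicate 1 or 2 or without WT replicate 2, 3, 4, 5 or 6, with adjusted p up to 0.121. The other 2 ratios kept theirs in all 12 runs. From quantile-normalized values, which do not keep the ratio within an array, the differences were larger, at 1.06 for PSB27 over SECE1, 2.21 for PSB27 over ATAB2 and 1.40 for PSB27 over LPA19 (exact permutation test, adjusted p = 0.00433 for each).

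Among the other 3 genes no ratio of deposited values passed. SECE1 over LPA19 was 1.498 ± 0.35 in prors2 and 1.48 ± 0.28 in WT, a difference of 0.01 (SE 0.18, exact permutation p = 0.942, adjusted p = 0.942). SECE1 over ATAB2 was 2.89 ± 0.96 in prors2 and 2.21 ± 0.36 in WT, a difference of 0.68 (SE 0.42, exact permutation p = 0.145, adjusted p = 0.216). From quantile-normalized values SECE1 over ATAB2 differed by 1.16 and passed (exact permutation test, adjusted p = 0.0357). LPA19 over ATAB2 was 1.39 ± 1.01 in prors2 and 0.73 ± 0.54 in WT, a difference of 0.67 (SE 0.47, exact permutation p = 0.18, adjusted p = 0.216). The prors2 samples spread widely in both ratios with ATAB2: replicates 3 and 4 were the 2 highest, and replicate 1 was the lowest.

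**Figure D5:**
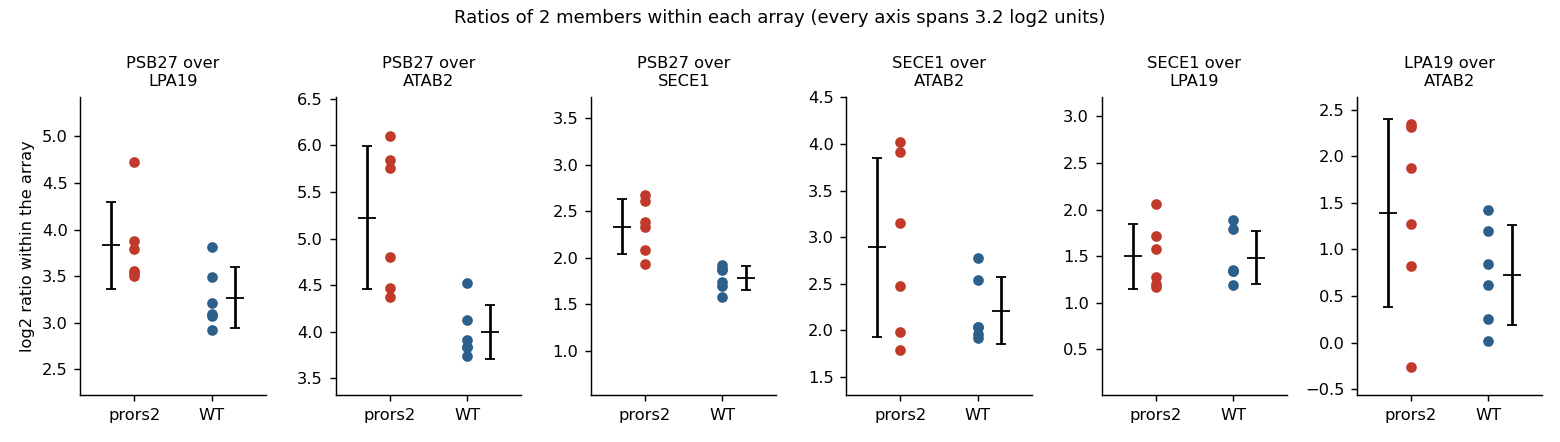
Log2 ratio of 2 genes within each array, from deposited values, for the 6 pairs in 6 prors2 and 6 WT samples; each axis spans the same length and black bars give the mean and SD. The ratio of PSB27 to SECE1 is higher in each prors2 sample (1.927 to 2.67) than in any WT sample (1.58 to 1.925), by a narrow margin at the nearest values, and the ratio of SECE1 to LPA19 has nearly the same mean in both groups.

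The wider list of photosystem assembly, thylakoid protein insertion and thylakoid membrane genes held 63 loci, of which 7 had a single-gene probe and another 7 shared a probe with other genes. All 7 with a probe of their own were tested. After quantile normalization 2 of the 7 rose, 3 fell and 2 did not pass, with a median log2 difference of -0.22 against 0.07 for all tested features, of which 24.8% were called higher and 22.4% lower. The same list gave 3 higher and 0 lower in limma with deposited values and with equal sums (0 lower also without adjustment), and 1 higher and 5 lower after median centring. Over all features, 57.8% were called higher and 8.9% lower with deposited values, 55% higher and 9.85% lower with equal sums, and 19.8% higher and 29.1% lower after median centring. Since 4 of the 7 are the genes described above, the list adds 3. Those 4 gave all 3 lower calls after quantile normalization and 1 of the 2 higher ones. The added 3 had 1 higher call and 0 lower there, with a median log2 difference of 0.23 against 0.07 for all tested features. Their median was 0.39 against 0.76 with deposited values and 0.32 against 0.69 with equal sums. After median centring they had 1 higher call and 2 lower, with a median of -0.43 against -0.06.

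Of those 3, AT1G22700 had the larger difference. It stood at 0.421 ± 0.059 in prors2 and 0.154 ± 0.052 in WT (SD, n = 6 each), and rose by 0.72 (SE 0.22, limma adjusted p = 0.0161). AT1G22700 was called higher under each scaling, with 1.51 from deposited values, 1.44 from equal sums and 0.69 from median centring. AT1G54500 stood at 1.87 ± 0.092 in prors2 and 1.43 ± 0.077 in WT. Its difference of 0.23 did not pass (SE 0.089, limma adjusted p = 0.0544), while deposited values (0.39) and equal sums (0.32) gave a higher call and median centring (-0.43) a lower one. FZL (AT1G03160), a dynamin-like protein of the chloroplast that shapes thylakoid membranes, stood at 1.203 ± 0.19 in prors2 and 1.152 ± 0.071 in WT. FZL differed by -0.22 (SE 0.13, limma adjusted p = 0.212) and was called lower after median centring alone, at -0.78. The gene table used here gives AT1G22700 and AT1G54500 no name. The wider list holds AT1G22700 under photosystem I assembly and AT1G54500 under photosystem II assembly and repair.

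The normalized values of each gene were also set against the 509 other single-gene features with a value in all 12 samples, by Pearson's r over the 12 samples. These values share the 12 arrays and include the difference between genotypes, so r after removing the group means is given too. For PSB27 the most similar were AT2G23160 (r = 0.87, 0.58 with group means removed), AT1G30700 (0.85 and 0.63) and AT1G49850 (0.85 and 0.82). For LPA19 they were AT1G15140 (0.94 and 0.85), TPP2 (AT4G20850), a tripeptidyl peptidase (0.92 and 0.78), and AILP1 (AT5G19140; 0.91 and 0.77). For ATAB2 they were AT2G29180 (0.95 and 0.89), AT1G18060 (0.90 and 0.75) and AT4G05070 (0.90 and 0.76). For SECE1 they were AGL54 (AT5G27090), an AGAMOUS-like gene (0.94 and 0.74), AT1G17160 (0.93 and 0.78) and AT1G68660 (0.89 and 0.70).

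None of the 4 genes was among the most similar features of another. Over the 12 samples r was 0.74 for LPA19 and SECE1, 0.68 for ATAB2 and SECE1, and 0.58 for LPA19 and ATAB2. With group means removed these became 0.24, 0.09 and -0.01. PSB27 ran against the other 3 over all samples (-0.58 with LPA19, -0.36 with ATAB2 and -0.53 with SECE1), but within the groups its r was 0.11 with LPA19, 0.66 with ATAB2 and 0.50 with SECE1. Among the features similar to ATAB2, AT4G05070 stood at 0.353 ± 0.077 in prors2 and 0.687 ± 0.15 in WT (SD, n = 6 each), lower in prors2 on the deposited scale too. Among those similar to SECE1, AT1G17160 stood at 1.12 ± 0.12 in prors2 and 1.64 ± 0.083 in WT. The features similar to LPA19 were mixed on the deposited scale. AT1G15140 was higher in prors2, at 0.348 ± 0.041 against 0.281 ± 0.035 in WT. TPP2 was nearly level, at 0.260 ± 0.053 in prors2 and 0.257 ± 0.041 in WT. AILP1 was lower, at 0.171 ± 0.045 in prors2 and 0.233 ± 0.048 in WT.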

How the data were processed

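Each deposited value is the authors' relative intensity of 1 feature in 1 sample, linear and never below 0. The sources used here do not name the quantity it is divided by, the background correction, the array or the software, and the table held 0 value columns of other samples. Values of 0 were treated as missing, log2 was taken, and arrays were quantile-normalized. A feature was tested with at least 4 of 6 values above 0 per group (3024 of 3439). Group was the one term in limma 3.58.1 (R 4.3.3), two-sided, with Benjamini-Hochberg adjustment over all tested features and a threshold of 0.05. The fit was also run on simulated data in which samples were independent and the arrays had no shift as a whole. That run does not bear on the scaling or the pairing. Genes were named through the platform table (692 single-gene probes, 690 of them matched to the TAIR10.1 gene table by gene number); 870 probes had several genes and 1877 features none listed. Coordinates are left out, since the array has no stated build.

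The members and lists were chosen with earlier results of these data known. Genes named are the 4 members, every tested single-gene member of the wider list, and the 3 features most like each member. Groups and replicate numbers come from the labels. Same-numbered samples deviated together over 2654 complete features (correlation 0.212 to 0.399, and each of the 12 matched its own number best). Tests with the numbers as pairs are therefore given beside the main tests, which do not use the pairing. The labels themselves do not state a pairing. Alternatives were 3 other scalings, values of 0 kept with 0.0296 added to all values or raised to the lowest positive value, filters on dim features, trend and robust fits, array weights, replicate numbers as a block, an exact permutation test per feature, and leaving out each sample. The sets of neighbouring numbers as a block were added after seeing the data.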

Additional observations from a re-analysis of the deposited data

How the results depend on the processing

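The scaling between arrays decides most calls, and the sources used here do not name what the deposited values were divided by. On the deposited values the log2 difference turned to 0.077 for LPA19 and 0.091 for SECE1, and at equal sums to 0.0041 for LPA19 and 0.018 for SECE1. ATAB2 kept its direction but lost its call there, at -0.59 and -0.66. After median centring PSB27 turned to -0.19. Over all features, 751 were called higher and 676 lower after quantile normalization, against 1747 and 269 with deposited values, 1664 and 298 with equal sums, and 600 and 881 with median centring. Of the 7 list members, 0 were called lower in limma on those 2 scalings (0 also without adjustment; 8.9% and 9.85% of all features), and 1 was higher and 5 lower after median centring, where 19.8% of all features were higher and 29.1% lower. The cause was not tested.

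With replicate numbers as a block the 4 genes kept their direction and call (log2 differences 0.62 for PSB27, -0.78 for LPA19, -1.59 for ATAB2 and -0.44 for SECE1), and 846 features were called higher and 759 lower. In the sign-flip test that keeps the pairing, the ratio differences of 0.56 (PSB27 over LPA19), 1.23 (PSB27 over ATAB2) and 0.55 (PSB27 over SECE1) did not pass, since 6 pairs allow few arrangements. From quantile-normalized values SECE1 over ATAB2 differed by 1.16 and passed (exact permutation test, adjusted p = 0.0357). Without 1 sample, PSB27 over LPA19 ran from 0.38 to 0.67. Log2 differences ran from 0.54 to 0.70 for PSB27, -0.90 to -0.68 for LPA19, -1.84 to -1.38 for ATAB2 and -0.47 to -0.39 for SECE1. All 4 were called in all 12 runs, in which 702 to 737 of all features were called higher and 627 to 665 lower. Each run kept the other samples of the same set of neighbouring numbers. The other treatments of 0, array weights, trend and robust fits, no minimum number above 0 and the exact permutation test per feature changed no call of the 4 genes. ATAB2 has no value without the dimmest 25% of features.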
